A study of Mus musculus with 12 samples.

Results

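The mitochondrial chromosome of the mouse carries 37 genes, and all of them were found in the deposited table by their chromosome label, MT, out of 54839 features. They were 13 protein-coding genes, 2 rRNA genes and 22 tRNA genes. Their share of each library and their levels by transcript class were described across 4 groups of 3 libraries. The cells were hepatocytes sorted from male, heterozygous p16-Tom mice, in which a tamoxifen-dependent Cre driven by the p16 locus switches on the red fluorescent protein tdTomato for good, so that Tom+ cells are those that had high p16 activity when tamoxifen was given. The mice received corn oil, the vehicle, or repeated intraperitoneal injections of CCl4, a hepatotoxin whose repeated dosing scars the liver, and all mice carried both alleles and received tamoxifen. Livers were digested with collagenase and live Tom+ and Tom- cells were collected by flow cytometry. The groups were Tom- oil, Tom+ oil, Tom- CCl4 and Tom+ CCl4. The Cre is not restricted to hepatocytes, and the ages of the mice and the number of mice behind each library are not given in the sources used here. Nothing in the labels says that the 3 libraries of a group came from separate mice, and p-values then measure the spread between these libraries, which may be technical.

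Mitochondrial DNA is a small circle that is transcribed from both strands as long precursors. The precursors are cut mainly at the tRNAs that lie between the other genes, and the rRNAs and most mRNAs receive short poly(A) tails. The mRNAs are translated inside the organelle into core subunits of respiratory complexes I, III and IV and of ATP synthase. Hepatocytes are rich in mitochondria, which oxidize fatty acids and host part of the urea cycle.

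RNA was enriched by poly(A), so the levels below are those of tailed transcripts and of fragments captured with them. The rounded totals ran from 37568669 to 75331523 counts per library (median 47910873). Hepatocyte marker genes summed to 92051 to 128783 CPM (counts scaled to a common library total, here corrected by the trimmed mean of M values, TMM), against at most 325 for endothelial, 176 for macrophage and 121 for stellate cell markers. The sums were at most 18.6 CPM for cholangiocyte, 4.31 for lymphocyte and 20.9 for red blood cell markers, and dissociation and stress genes summed to 196 to 309 CPM. No marker was at 0 in all 12 libraries, and 13 stayed under 1 CPM in all of them, among them the cholangiocyte keratins Krt19 and Krt7 and the T cell genes Cd3e and Cd3g. The tdTomato feature (ENSMUSG00000999992) went against the label of 2 oil libraries. Its TMM-scaled level was 1794, 157 and 143 CPM in the libraries labelled Tom- oil and 1546, 135 and 1225 in those labelled Tom+ oil (replicates 1, 2 and 3), so replicate 1 of Tom- oil was high and replicate 2 of Tom+ oil was low. In the CCl4 libraries it was 123, 263 and 119.7 CPM in Tom- and 1343, 1316 and 1369 in Tom+, which follows the labels. Results that use the oil groups are given under the deposited labels. The total mitochondrial share, changes in the calls of mitochondrial genes and values of those named for a call are also given without these 2 libraries. Other shares and the values of nuclear genes are given under the deposited labels only.

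The genes of the mitochondrial chromosome abut or overlap, and some have near-identical copies in the nuclear genome, which bears on how counts could be assigned to them. The last stretch of mt-Atp8 and the first of mt-Atp6, which encode adjoining membrane subunits of ATP synthase, are shown with their 43 shared bases in capitals (GRCm38, chrMT:7910-7969, plus strand, and chrMT:7927-7986, plus strand), beside the start of Gm10925 (chr1:24614592-24614651, minus strand), a nuclear feature with the same letters. Sequences are from the GENCODE M21 transcripts, read 5′ to 3′ along the gene's own strand.
mt-Atp8: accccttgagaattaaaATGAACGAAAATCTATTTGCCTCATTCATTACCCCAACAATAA
mt-Atp6: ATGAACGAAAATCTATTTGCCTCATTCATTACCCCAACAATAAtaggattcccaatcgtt
Gm10925: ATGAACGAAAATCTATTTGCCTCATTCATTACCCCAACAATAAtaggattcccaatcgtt

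The start of mt-Nd3 (chrMT:9459-9486, plus strand), a complex I subunit, and of its nuclear copy Gm28438 (chr1:24613092-24613119, minus strand) is shown because it holds the only base that separates them, T3C counted from the first base of the gene, printed in capitals.
mt-Nd3: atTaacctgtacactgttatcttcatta
Gm28438: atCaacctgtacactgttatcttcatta

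Of the 13 mRNAs, 10 ended in a whole stop codon in the annotation. The other 3 ended in a single T after the last whole codon, and the poly(A) tail is known to complete their stop codon. Their last 30 bases are shown with that T in capitals (mt-Co3 chrMT:9361-9390, plus strand, mt-Nd4 chrMT:11515-11544, plus strand, mt-Cytb chrMT:15259-15288, plus strand), since tail addition is both the step that finishes these messages and the property by which the libraries were made.
mt-Co3: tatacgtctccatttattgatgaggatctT
mt-Nd4: gtccaaaactaattacaggcctgacaataT
mt-Cytb: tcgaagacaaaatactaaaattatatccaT

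Of the 22 tRNA genes, 14 lay on the plus strand and 8 on the minus strand, which also carries mt-Nd6, the only mRNA of that strand. A cluster of 4 minus-strand tRNA genes between mt-Nd2 and mt-Co1 is shown because all its members rose with CCl4 in Tom- cells: mt-Ta for alanine (chrMT:5018-5086, minus strand), mt-Tn for asparagine (chrMT:5089-5159, minus strand), mt-Tc for cysteine (chrMT:5192-5257, minus strand) and mt-Ty for tyrosine (chrMT:5260-5326, minus strand). The serine tRNA mt-Ts1 (chrMT:6870-6938, minus strand) is shown because it had the highest level of the class, and the 3 bases that it shares with the end of mt-Co1 on the other strand are in capitals.
mt-Ta: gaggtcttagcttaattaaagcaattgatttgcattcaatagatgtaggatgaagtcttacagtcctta
mt-Tn: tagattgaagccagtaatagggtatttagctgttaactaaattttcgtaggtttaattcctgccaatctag
mt-Tc: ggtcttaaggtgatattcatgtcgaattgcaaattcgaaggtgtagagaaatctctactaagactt
mt-Ty: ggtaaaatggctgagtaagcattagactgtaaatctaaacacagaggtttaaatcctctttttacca
mt-Ts1: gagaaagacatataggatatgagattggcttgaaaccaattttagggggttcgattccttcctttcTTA

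A block of nuclear DNA on chromosome 1 (GRCm38, chr1:24611535-24616197) held 7 annotated features that copy mitochondrial genes in the same order, all on the minus strand. Gm10925, Gm28437, Gm28661 and Gm10222 matched mt-Atp6, mt-Co3, mt-Co2 and mt-Nd4l over 678, 783, 681 and 294 bases without a mismatch. Gm28438 matched mt-Nd3 over 345 bases with the 1 difference given above. Gm28439 held the first 876 of 1378 bases of mt-Nd4 without a mismatch, and Gm29216 held bases 1063 to 1545 of mt-Co1 with 1 mismatch, A1066T. The copy keeps the spacing too. On chromosome 1, 233 bases lay between Gm28661 and Gm10925, and 233 lay between the copied part of mt-Co2 and mt-Atp6 on the mitochondrial chromosome.

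The copies took a large and even part of the counts. For the 5 mRNAs copied over more than 98% of their length, between 49.3% and 54.0% of the counts of each pair stood on the nuclear feature in every one of the 12 libraries. For mt-Atp6 it was 53.9% on average (53.5% to 54.0%), for mt-Nd4, copied in part, 28.0%, and for mt-Co1, copied only near its end, 11.0%. Copies with more mismatches took almost none, at most 0.163% of the pair in any library over 4 features on chromosomes 2 and 13 with 95.2% to 97.6% identity. Of the counts of the mRNAs and rRNAs, 164 of 180 values were not whole numbers. The deposited levels of mt-Atp6, mt-Co3, mt-Co2, mt-Nd4l and mt-Nd3 therefore stand near 50% of the level of each pair, and the split varied by less than 2 percentage points between libraries for each of them. Adding the copies back to the mitochondrial genes left every called gene in every comparison as it was.

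**Figure D1:**
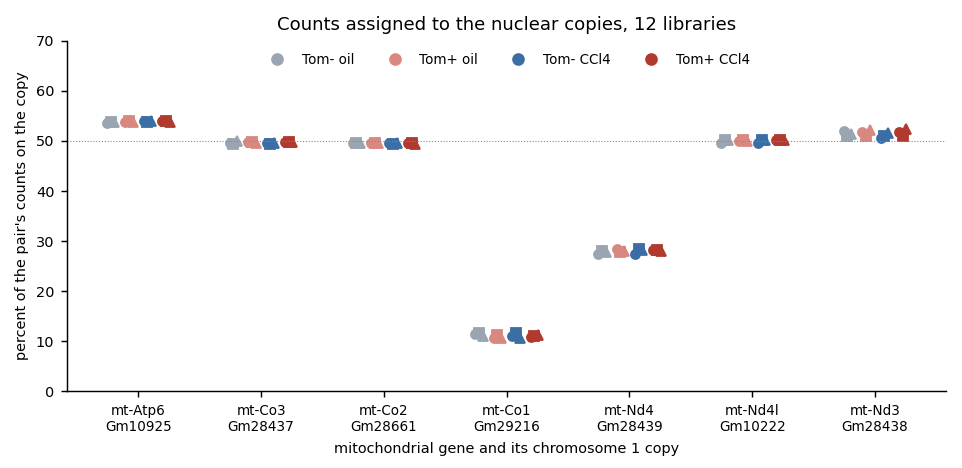
Percent of the counts of each mitochondrial gene and its chromosome 1 copy that were assigned to the copy (y axis) for 7 genes (x axis) in each of the 12 libraries. Colours mark the 4 groups, and circles, squares and triangles mark replicates 1, 2 and 3. The 5 fully copied genes lie close to the dotted line at 50% in every library, mt-Nd4 near 28.0% and mt-Co1 near 11.0%.

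Per unit of length, the complex IV subunit mt-Co1 stood highest among the deposited features, at 15784 (8554 to 22050.0) TPM (counts divided by feature length and scaled to 1 sum per library, given as the mean over 12 libraries with the lowest and the highest). It was followed by mt-Atp6 at 11646 (7803 to 17047) and mt-Co3, another complex IV subunit, at 8125 (5659 to 12293). With the nuclear copies added, mt-Atp6 came first at 25379.8 TPM, before mt-Co1 at 17849.7, mt-Co3 at 16226 and mt-Co2 at 12342, so the order of the leading mRNAs depends on where the shared reads are placed. Next in order were mt-Nd1 at 7553 (3439 to 12978) TPM, mt-Atp8 at 7395 (4905 to 10927), mt-Cytb at 6915 (3983 to 10280.2) and mt-Nd2 at 6574 (3254 to 11335), with ranges that overlapped over most of their width. mt-Cytb is the mitochondrially encoded subunit of complex III. The remaining complex I messages were lower, from 4317 (2454 to 6126) TPM for mt-Nd4 through 2626 (1473 to 3728) for mt-Nd4l, 2343 (1238 to 3167) for mt-Nd5 and 2243 (1219 to 3010.1) for mt-Nd6 down to 1907 (1313 to 3019.7) for mt-Nd3, and mt-Co2 stood at 6191 (3384 to 9786). The rRNAs of the small and large subunit of the mitochondrial ribosome, mt-Rnr1 and mt-Rnr2, reached only 1184 (574 to 2858) and 800.2 (358 to 1997) TPM in these poly(A)-enriched libraries, below every mRNA on average.

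The tRNA features, 59 to 75 bases long, ranged over nearly 3 orders of magnitude per unit of length. The highest was mt-Ts1 at 3061 (1842 to 4233) TPM, followed by the glutamate tRNA mt-Te at 2266 (1109.5 to 3124) and the proline tRNA mt-Tp at 1164 (657 to 1994). Then came mt-Tc at 672 (299 to 1289.8), mt-Ty at 536 (253 to 1043) and mt-Tn at 509.6 (216 to 969), and the leucine tRNA mt-Tl1, on the plus strand, at 489 (224 to 913). The 6 leading tRNA features were all annotated on the minus strand. The phenylalanine tRNA mt-Tf was the lowest at 4.55 (1.63 to 10.5) TPM, with 2.50 to 16.0 counts per library, and it was the 1 member that did not pass the filter on low counts. The libraries were strand-specific, but nuclear features lying inside a gene on the opposite strand carried a median of 0.640 times the counts per base of that gene (35 features), against 0.651 times for features on the same strand (26 features). How the counting used strand is not given in the sources used here, and counts on minus-strand features, mt-Nd6 and these tRNA features included, cannot be told apart from reads of the plus-strand transcript over the same bases.

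The mitochondrial features together held 1.87% to 5.58% of the counts of a library, and the Tom- and Tom+ means stood in opposite order in the 2 treatments. In CCl4 mice the share was 3.43, 4.50 and 5.58% in the Tom- libraries and 3.09, 2.54 and 3.16% in the Tom+ libraries. All 3 Tom+ libraries lay below all 3 Tom- libraries, and the difference of -1.57 percentage points had a 2-sided exact permutation p of 0.1, the smallest that 3 against 3 libraries can give. In oil mice the share was 3.66, 2.55 and 1.87% in Tom- and 3.76, 3.64 and 4.28% in Tom+, so the groups overlapped through the Tom- oil library with the high reporter level. The group values were 2.69% ± 0.901 (SD, n = 3) for Tom- oil, 3.90% ± 0.337 (SD, n = 3) for Tom+ oil, 4.50% ± 1.08 (SD, n = 3) for Tom- CCl4 and 2.93% ± 0.338 (SD, n = 3) for Tom+ CCl4. The oil difference of 1.20 points had an exact permutation p of 0.2. It became 1.81 without the 2 oil libraries in doubt (exact p 0.333 with 2 against 2 libraries, the smallest these can give). In bulk libraries fewer mitochondria-rich cells and less mitochondrial RNA per cell cannot be told apart. The paper reports that, in mice given the hepatotoxin, Tom+ hepatocytes lay mostly in the zone around the central veins. It states that this uneven position kept the bulk data from separating traits of Tom+ cells from those of their zone. The part of zone in the Tom+ and Tom- differences given here was not tested.

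CCl4 minus oil was 1.81 percentage points in Tom- (exact permutation p 0.2) and -0.965 in Tom+ (exact permutation p 0.1), and without the 2 oil libraries in doubt 2.29 and -1.09 points. Between same-numbered libraries, Tom+ minus Tom- was -0.346, -1.96 and -2.42 percentage points in CCl4 pairs 1, 2 and 3 and 0.106, 1.09 and 2.41 in the oil pairs, which puts all CCl4 pairs below and all oil pairs above 0, with pair 1 near 0 in both. By the reporter, only oil pair 3 differed in the labelled direction (143 CPM in Tom- and 1225 in Tom+). Oil pairs 1 (1794 and 1546) and 2 (157 and 135) did not, so their differences are not contrasts of low against high reporter. The difference between these differences was -2.78 points (exact permutation p 0.1, again the smallest possible). With the replicate block, which pairs same-numbered libraries, the exact permutation p of the Tom+ against Tom- difference was 0.25 in CCl4 and 0.25 in oil. This is the smallest value that 3 pairs can give. Leaving out 1 library moved the CCl4 difference to between -2.11 and -1.03 points, the latter without Tom- CCl4 replicate 3, and the oil difference to between 0.790 and 1.68 points, the former without Tom- oil replicate 3. With the chromosome 1 copies added, the means were 3.61% (Tom- oil), 5.12% (Tom+ oil), 5.98% (Tom- CCl4) and 3.82% (Tom+ CCl4), and the oil libraries then no longer overlapped (exact permutation p 0.1).

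**Figure D2:**
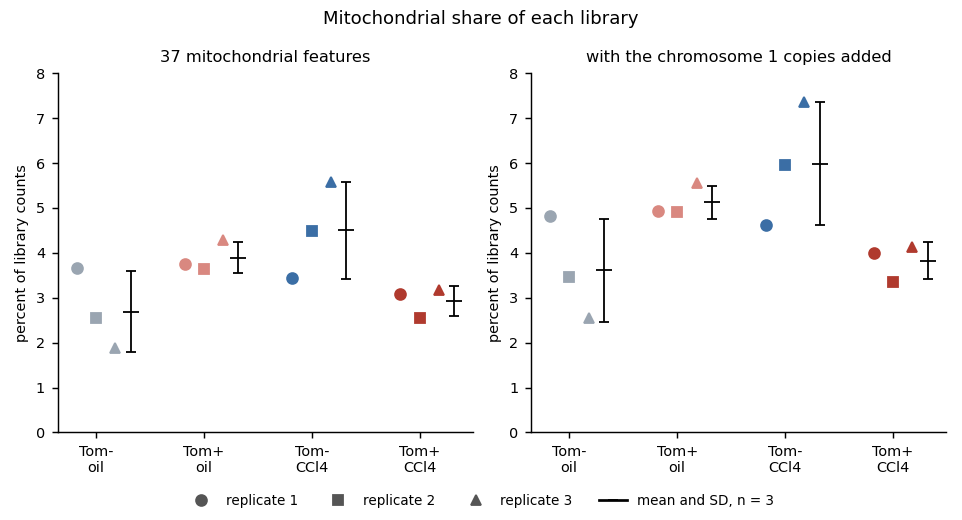
Mitochondrial counts as a percent of all counts of a library (y axis) in the 4 groups (x axis), for the 37 mitochondrial features (left) and with the 7 chromosome 1 copies added (right). Symbols are libraries, with circles, squares and triangles for replicates 1, 2 and 3, and the black bar is the mean with its SD (n = 3). On the left the Tom+ CCl4 libraries sit between 2.54% and 3.16%, below all Tom- CCl4 libraries, while in oil the Tom- libraries spread from 1.87% to 3.66%.

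By class, mRNAs made up nearly all of this share, with means of 2.61% of the library in Tom- oil, 3.80% in Tom+ oil, 4.29% in Tom- CCl4 and 2.80% in Tom+ CCl4. The 2 rRNAs held 0.0894, 0.0643 and 0.0452% in Tom- oil and 0.118, 0.143 and 0.267% in Tom- CCl4, without overlap and 2.65-fold higher on average after CCl4 (exact permutation p 0.1). In Tom+ the rRNA share was 0.0538, 0.0550 and 0.0848% in oil and 0.0856, 0.0804 and 0.144% in CCl4, and the groups overlapped at the edge. The tRNA features summed to no more than 0.0511% of any library, with group means of 0.0220%, 0.0301%, 0.0405% and 0.0285% in the same order as above, and overlapped in all 4 comparisons.

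The lower share of Tom+ hepatocytes in CCl4 mice was then followed gene by gene. Of the 36 members tested, all had a lower fitted level in Tom+ than in Tom-, with a median log2 fold change of -0.75 against 0.0042 over all 17121 genes tested. Under the study's thresholds (adjusted p under 0.05 and a log2 fold change beyond 0.75), 6 members fell and none rose, whereas 1.74% of all genes tested were called lower and 0.222% higher. The 6 were the complex I subunit mt-Nd3, the complex IV subunit mt-Co3, both mitochondrial ATP synthase subunits mt-Atp6 and mt-Atp8, and the tRNAs for glycine and proline, mt-Tg and mt-Tp. A call does not measure a member's part in the lower share. As CPM of the library total, without TMM, the uncalled mt-Co1 had means of 12755 in Tom- CCl4 and 8821 in Tom+ CCl4. For the called mt-Nd3 these means were 445 and 213. All 13 mRNAs had Tom+ libraries below the Tom- libraries without overlap, as had 20 of the 36 members tested, against 14.6% of all genes.

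mt-Nd3 had the largest fall on the log2 scale. It stood at 452, 472 and 473 CPM in Tom- CCl4 and 184, 222 and 197 in Tom+ CCl4 (TMM-scaled, replicates 1, 2 and 3). The Tom- libraries lay within a few percent of each other and every Tom+ library lay below 50% of the lowest of them. The log2 fold change was -1.21 (SE 0.16, edgeR adjusted p 0.00255, 1.25e-10 to 0.0200 over 20 alternative settings, such as other scalings, filters and tools or 1 library left out). mt-Co3 stood at 3337, 3898 and 4571 CPM in Tom- CCl4 and 1842, 1859.5 and 2246 in Tom+ CCl4, a log2 fold change of -0.99 (SE 0.16, edgeR adjusted p 0.00654, 1.43e-07 to 0.0384 over the alternatives). mt-Atp6 stood at 3999, 4119.6 and 5506 CPM in Tom- CCl4 and 2447, 2124 and 2696 in Tom+ CCl4, and its 43-base partner mt-Atp8 at 784, 750.2 and 1057 CPM in Tom- CCl4 and 486, 422 and 502 in Tom+ CCl4. In both genes the 3 Tom+ libraries were the lowest, and the log2 fold changes were -0.91 (SE 0.18, edgeR adjusted p 0.0145, range 3.93e-05 to 0.0785) and -0.88 (SE 0.17, edgeR adjusted p 0.0112, range 1.92e-05 to 0.0638). The reads over the shared bases do not separate these genes. mt-Tg, which lies between mt-Co3 and mt-Nd3, was 5.81, 6.30 and 10.6 CPM in Tom- CCl4 and 2.81, 2.60 and 4.59 in Tom+ CCl4 (log2 fold change -1.19, SE 0.29, edgeR adjusted p 0.0338, range 0.00137 to 0.140). mt-Tp was 44.6, 43.0 and 63.4 CPM in Tom- CCl4 and 27.1, 29.3 and 28.0 in Tom+ CCl4, again without overlap (log2 fold change -0.84, SE 0.22, edgeR adjusted p 0.0458, range 0.00255 to 0.131). Each of the 6 was lower in Tom+ in 3 of 3 same-numbered pairs. As for the share, the part of zone in these differences was not tested.

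The other members did not pass, and their values were spread below 0. Among the mRNAs they ran from -0.48 for mt-Nd6 (edgeR adjusted p 0.259) to -0.81 for mt-Co2 (edgeR adjusted p 0.0833), mt-Rnr1 stood at -1.12 with a wide error (SE 0.33, edgeR adjusted p 0.0770), mt-Rnr2 at -0.73 (SE 0.45) and the smallest tRNA value, that of mt-Tl1, was -0.34. At an unadjusted p under 0.05, 24 of the 36 passed, against 22.8% of all genes. The count of called members was 14 with DESeq2 and 7 with the replicate block, which added mt-Tn. It was 2, mt-Co3 and mt-Nd3, without Tom- CCl4 replicate 3 or without Tom+ CCl4 replicate 2, 10 without Tom- oil replicate 1 or Tom- CCl4 replicate 1, and 12 without Tom- oil replicate 3. Endothelial markers moved with this comparison: all 8 were measured, 5 were called, and their sum was 315 to 325 CPM in Tom- CCl4 and 174 to 235 in Tom+ CCl4, while the hepatocyte sum was 120800.0 to 128783 and 103186 to 111395 CPM. Their part in the result was not tested.

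In oil mice the fitted levels pointed the other way without a call. Of the 36 members, 34 were higher in Tom+, the exceptions being the rRNAs, and no member was called by edgeR, as no gene of all 17121 was (0.00%). DESeq2 called no member either, and 11 of 36 passed an unadjusted p under 0.05, against 7.00% of all genes. The median over the 13 mRNAs was 0.57 (0.0070 over all genes). It was 0.90 without Tom- oil replicate 1 and 0.90 without both oil libraries in doubt. The highest mRNA value was that of mt-Nd5, a complex I subunit, with 1906, 1222 and 934 CPM in Tom- oil and 2378, 2136 and 2234 in Tom+ oil (log2 fold change 0.73, SE 0.23, edgeR adjusted p 0.555, 0.132 to 1 over the alternatives), and its log2 fold change was 1.08 without the 2 oil libraries. Tom- oil replicate 1 was the highest of its group there. The lowest value was that of mt-Rnr1, -0.054 (SE 0.33, edgeR adjusted p 0.982, 0.853 to 1 over the alternatives), and its sign depended on single libraries.

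**Figure D3:**
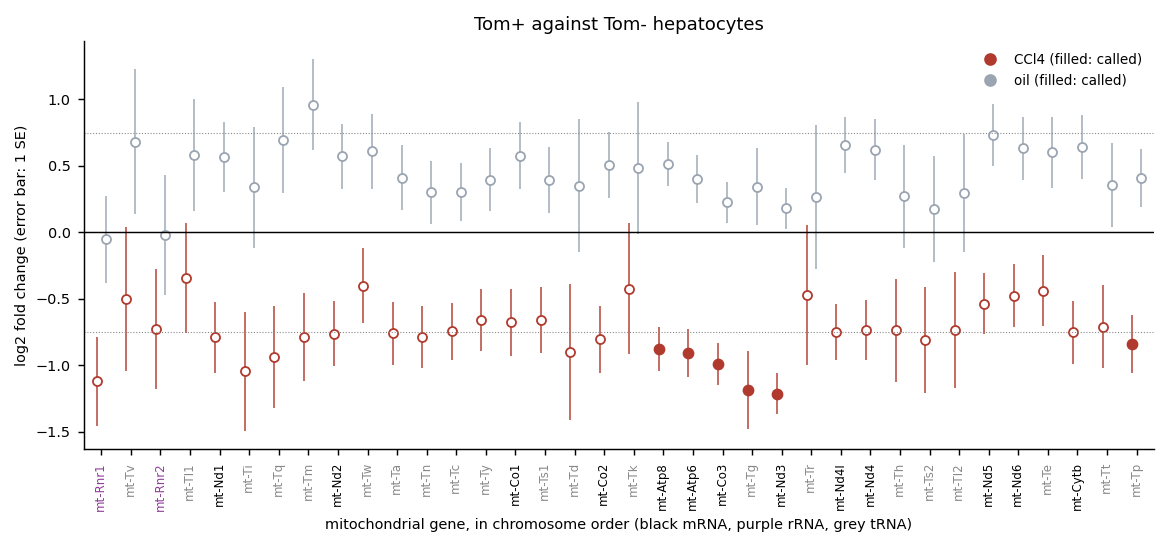
Log2 fold change of Tom+ against Tom- hepatocytes (y axis, error bar 1 SE) for the 36 tested mitochondrial genes in chromosome order (x axis), in CCl4 (red) and oil (grey). Filled symbols passed both thresholds and dotted lines mark a log2 fold change of 0.75 in either direction. All 36 CCl4 values lie below 0, 6 of them filled, and 34 of 36 oil values lie above 0, none of them filled.

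The difference between the Tom+ and Tom- contrast in CCl4 and that in oil was tested as an interaction in the same fit. All 36 members had a negative interaction, with a median of -1.20 against -0.0059 over all genes. It passed for 5 mRNAs, mt-Nd3, mt-Atp8, mt-Atp6, mt-Co3 and mt-Nd4l, while 0.958% of all genes were called in this direction and 0.216% in the other. The log2 interaction was -1.39 (SE 0.22, edgeR adjusted p 0.0109, range 9.32e-07 to 0.0439) for mt-Nd3 and -1.39 (SE 0.23, edgeR adjusted p 0.0165, range 2.45e-06 to 0.0636) for mt-Atp8. It was -1.31 (SE 0.25, edgeR adjusted p 0.0304, range 6.40e-05 to 0.0918) for mt-Atp6 and -1.22 (SE 0.22, edgeR adjusted p 0.0222, range 1.85e-05 to 0.0801) for mt-Co3. For mt-Nd4l, whose CPM was 333, 238 and 181 in Tom- oil, 379.7, 350.0 and 458 in Tom+ oil, 327, 446 and 525 in Tom- CCl4 and 269, 235 and 267 in Tom+ CCl4, it was -1.41 (SE 0.30, edgeR adjusted p 0.0445, range 0.000165 to 0.115). With the replicate block it did not pass for mt-Nd4l (edgeR adjusted p 0.0740), but 8 tRNA genes were added and 12 members passed in all. Without the 2 oil libraries in doubt the log2 interaction was -1.17 for mt-Nd3, -1.46 for mt-Atp8, -1.42 for mt-Atp6, -1.26 for mt-Co3 and -1.75 for mt-Nd4l. The count was 14 without them, 22 with DESeq2, 16 without Tom- oil replicate 1 and 1 without Tom+ CCl4 replicate 2. It was 2 without Tom- oil replicate 2 or Tom- CCl4 replicate 2, and 3 without Tom+ oil replicate 1, Tom+ oil replicate 2 or Tom+ CCl4 replicate 1.

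CCl4 was compared with oil in the Tom- cells next. All 36 members tested were higher in CCl4 than in oil, with a median log2 fold change of 0.84 (0.0046 over all genes), and 15 rose and none fell, against 6.33% of all genes called higher and 1.59% lower. The 15 were 6 mRNAs, the small-subunit rRNA mt-Rnr1 and 8 tRNA features. Among the mRNAs, the complex I subunits mt-Nd1, mt-Nd2, mt-Nd3 and mt-Nd4l rose by 1.10, 1.10, 1.06 and 0.79 on the log2 scale, and the complex IV subunits mt-Co2 and mt-Co3 by 0.81 and 0.77. Their edgeR adjusted p ran from 0.00109 for mt-Nd3 to 0.0484 for mt-Co2, which lost its call in 13 of 20 alternatives (range 0.00441 to 0.169).

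mt-Nd2 stood at 2691, 1880.4 and 1397 CPM in Tom- oil and 3080.3, 4101 and 5580.4 in Tom- CCl4. All CCl4 libraries lay above the oil libraries, CCl4 replicate 1 by the least, and the highest oil library was replicate 1, the one with the high reporter level. mt-Rnr1 stood at 442, 316 and 227 CPM in Tom- oil and 703, 700.4 and 1294 in Tom- CCl4, without overlap (log2 fold change 1.45, SE 0.33, edgeR adjusted p 0.0170, range 0.00122 to 0.0567). The large-subunit rRNA mt-Rnr2 had a log2 fold change of 1.47 with a larger error (SE 0.46) and missed the threshold (edgeR adjusted p 0.0593).

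Among the highest values were those of the 4 neighbouring tRNA features shown above. mt-Tn stood at 11.1, 9.15 and 6.33 CPM in Tom- oil and 19.5, 28.3 and 32.6 in Tom- CCl4, and mt-Tc at 13.7, 10.8 and 8.15 CPM in Tom- oil and 24.5, 32.3 and 40.4 in Tom- CCl4. Every CCl4 library lay above every oil library in both. The log2 fold changes were 1.60 (SE 0.24, edgeR adjusted p 0.00143, range 1.20e-09 to 0.00828) and 1.58 (SE 0.22, edgeR adjusted p 0.00102, range 9.70e-11 to 0.00654), and mt-Ta and mt-Ty rose by 1.60 and 1.51. The glutamine tRNA mt-Tq and the methionine tRNA mt-Tm, between mt-Nd1 and mt-Nd2, rose by 1.58 and 1.40, the tryptophan tRNA mt-Tw, next to the cluster, by 0.98, and mt-Tp by 1.09. All but mt-Tp of these tRNA features, as well as mt-Rnr1, mt-Nd1 and mt-Nd2, lie between bases 70 and 5326 of the chromosome. The stretch also holds mt-Tv, mt-Rnr2, mt-Tl1 and mt-Ti, which were not called. Of the called features in it, mt-Tq and the cluster are on the minus strand. The called mRNAs mt-Co2, mt-Co3, mt-Nd3 and mt-Nd4l lie at higher base numbers.

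The count of 15 became 25 without the 2 oil libraries in doubt, as it did without Tom- oil replicate 1 or Tom- CCl4 replicate 1. Without the 2 oil libraries the log2 fold changes of the called mRNAs were 1.46 for mt-Nd1, 1.38 for mt-Nd2, 1.07 for mt-Nd3, 1.05 for mt-Nd4l, 1.11 for mt-Co2 and 0.91 for mt-Co3. That of mt-Rnr1 was 1.73, and those of the called tRNA features ran from 1.40 for mt-Tw to 1.97 for mt-Tq. Each of the 15 values was higher than with all libraries. It was 8, 9 and 7 without Tom- oil replicate 2, Tom- oil replicate 3 and Tom- CCl4 replicate 3. Markers of other liver cells moved with CCl4 in Tom- libraries: the macrophage sum was 11.8 to 69.5 CPM in oil and 88.5 to 109.7 in CCl4, the stellate cell sum 10.3 to 20.6 and 77.9 to 97.5, and the endothelial sum 132 to 196 and 315 to 325, over 8 markers each. The hepatocyte sum was 92051 to 118145 CPM in oil and 120800.0 to 128783 in CCl4. Their part in the result was not tested.

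In Tom+ cells the fitted mRNA levels were lower in CCl4 than in oil. All 13 mRNAs had negative values, from -0.24 for mt-Nd2 to -0.90 for mt-Cytb, with a median of -0.53 (0.0020 over all genes), and of the 36 members tested only mt-Cytb fell and none rose, against 2.34% of all genes called lower and 2.90% higher. mt-Cytb stood at 4156, 3859 and 5179 CPM in Tom+ oil and 2616, 2018 and 2439 in Tom+ CCl4. No CCl4 library reached the lowest oil library (log2 fold change -0.90, SE 0.24, edgeR adjusted p 0.0341), and the log2 fold change was -0.98 without the 2 oil libraries in doubt. This call was lost in 7 of 20 alternatives (range 0.00114 to 0.118), among them each fit without 1 of the 3 Tom+ oil libraries and those without Tom- CCl4 replicate 2 or Tom+ CCl4 replicate 2, which left 0 members called, and 2 were called without Tom- CCl4 replicate 3. The rRNAs, with values of 0.38 for mt-Rnr1 (edgeR adjusted p 0.529) and 0.77 for mt-Rnr2 (edgeR adjusted p 0.346), and the 4 tRNA features of the cluster, with values of 0.43 for mt-Ta, 0.51 for mt-Tn, 0.53 for mt-Tc and 0.45 for mt-Ty, lay above 0, and none of them passed. The macrophage marker sum was 21.3 to 102 CPM in oil and 58.5 to 176 in CCl4, the stellate cell sum 10.5 to 33.6 and 62.6 to 121, the endothelial sum 141 to 234 and 174 to 235, and the hepatocyte sum 111707 to 115928 and 103186 to 111395, and their part in the result was not tested.

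**Figure D4:**
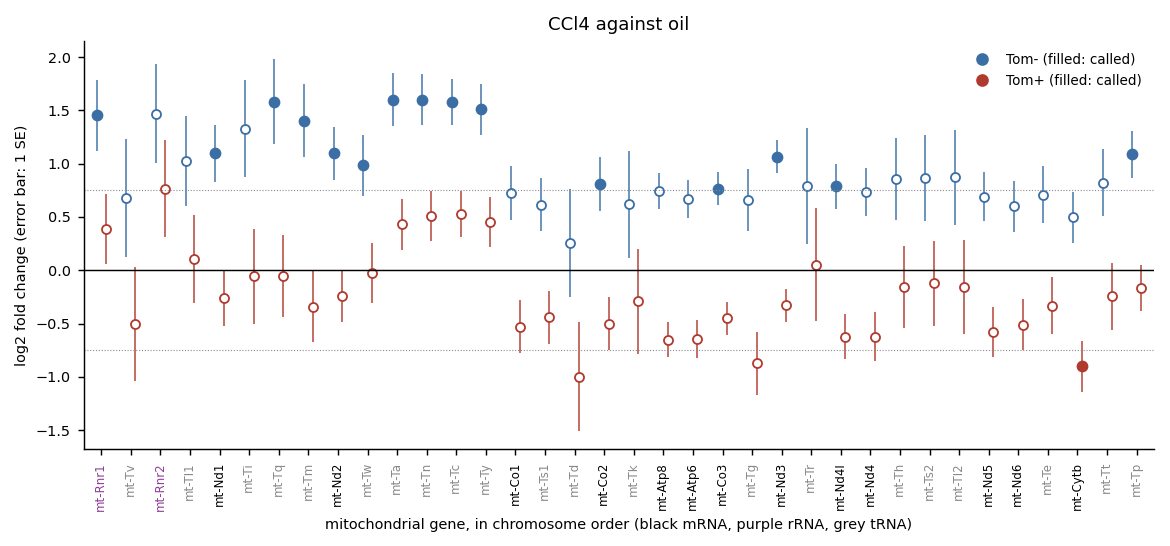
Log2 fold change of CCl4 against oil (y axis, error bar 1 SE) for the 36 tested mitochondrial genes in chromosome order (x axis), in Tom- (blue) and Tom+ (red) hepatocytes. Filled symbols passed both thresholds and dotted lines mark a log2 fold change of 0.75 in either direction. All Tom- values lie above 0 and 15 are filled, while the 13 Tom+ mRNA values lie below 0 with only mt-Cytb filled.

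Averaged over both fractions, CCl4 against oil called no mRNA and called the rRNAs and the tRNA cluster higher. In this contrast 6 members rose and none fell, against 6.17% of all genes called higher and 2.26% lower: mt-Rnr1 by 0.92 (SE 0.23, edgeR adjusted p 0.0197, range 0.00345 to 0.0659), mt-Rnr2 by 1.12 (SE 0.32, edgeR adjusted p 0.0361, range 0.00802 to 0.0894), and mt-Ta, mt-Tn, mt-Tc and mt-Ty by 1.02, 1.06, 1.05 and 0.98 on the log2 scale. The edgeR adjusted p of these 4 tRNA features ran from 0.000633 to 0.00179, and each kept its call in all 21 alternatives. Both rRNA calls were lost when same-numbered Tom- and Tom+ libraries were summed, and that of mt-Rnr2 was lost without the 2 oil libraries in doubt. Leaving out Tom+ oil replicate 1 or Tom- CCl4 replicate 3 also lost both calls, and that of mt-Rnr2 was lost too without Tom- oil replicate 2 or 3, Tom+ oil replicate 2, Tom- CCl4 replicate 2 or Tom+ CCl4 replicate 3 and without the filter on low counts. No mRNA passed both thresholds, and the values ran from 0.43 for mt-Nd2 and 0.42 for mt-Nd1 down to -0.20 for mt-Cytb. mt-Nd3, at 0.37, had an edgeR adjusted p of 0.0290 but missed the fold change threshold. Between them lay, among others, mt-Co3 and mt-Co2 at 0.16 each, mt-Co1 at 0.099 and mt-Nd4 at 0.056. Without the 2 oil libraries the log2 fold changes of the called members ran from 1.05 for mt-Rnr1 to 1.19 for mt-Tn. This contrast shares its libraries with the preceding ones.

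The make-up of the mitochondrial counts, which does not depend on their total, was then compared. mt-Nd1 made up, of the mitochondrial counts, between 9.12% and 10.1% (median 9.32%) in the 6 CCl4 libraries and between 7.13% and 8.53% (median 7.92%) in the 6 oil libraries. mt-Nd2 made up between 8.52% and 9.56% (median 8.92%) in the 6 CCl4 libraries and between 7.11% and 7.92% (median 7.37%) in the 6 oil libraries. mt-Cytb went the other way and made up between 7.98% and 9.14% (median 8.50%) in the 6 CCl4 libraries and between 9.87% and 11.8% (median 10.6%) in the 6 oil libraries. For these mRNAs the CCl4 and oil libraries did not overlap, whichever fraction they came from and with or without the nuclear copies, and the 2 oil libraries in doubt make no difference to that. The remaining mRNAs overlapped between treatments. How many of all genes separate the 6 and 6 libraries in this way is not given here. By the edgeR fit, 35.0% of all genes had an unadjusted p under 0.05 for CCl4 against oil averaged over both fractions. The 6 libraries of a treatment are also same-numbered Tom- and Tom+ pairs, so they may not be 6 independent units. mt-Co1, the most abundant, made up between 26.9% and 31.1% (median 29.6%) in the 6 CCl4 libraries and between 28.3% and 32.5% (median 29.8%) in the 6 oil libraries.

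The rRNAs showed the same split. mt-Rnr1 made up between 1.27% and 2.22% (median 1.68%) in the 6 CCl4 libraries and between 0.702% and 1.25% (median 1.03%) in the 6 oil libraries, and mt-Rnr2 between 1.50% and 2.71% (median 1.77%) in the 6 CCl4 libraries and between 0.677% and 1.27% (median 1.17%) in the 6 oil libraries. Together they made up 2.44, 2.52 and 2.41% of the mitochondrial counts in Tom- oil, 1.43, 1.51 and 1.98% in Tom+ oil, 3.44, 3.17 and 4.78% in Tom- CCl4 and 2.77, 3.16 and 4.56% in Tom+ CCl4. Tom- oil libraries were tightly grouped, all Tom+ oil libraries lay below them, and replicate 3 was the highest of both CCl4 groups. The group values were 2.46% ± 0.0542 (SD, n = 3), 1.64% ± 0.300 (SD, n = 3), 3.80% ± 0.865 (SD, n = 3) and 3.50% ± 0.939 (SD, n = 3) in the same order. Over 72 such comparisons between groups of 3, the unadjusted exact permutation p could not be lower than 0.1. The smallest Benjamini-Hochberg adjusted value was 0.288. An adjusted value under 0.05 was not possible with 3 against 3 libraries, so no conclusion on the make-up is drawn from this test.

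**Figure D5:**
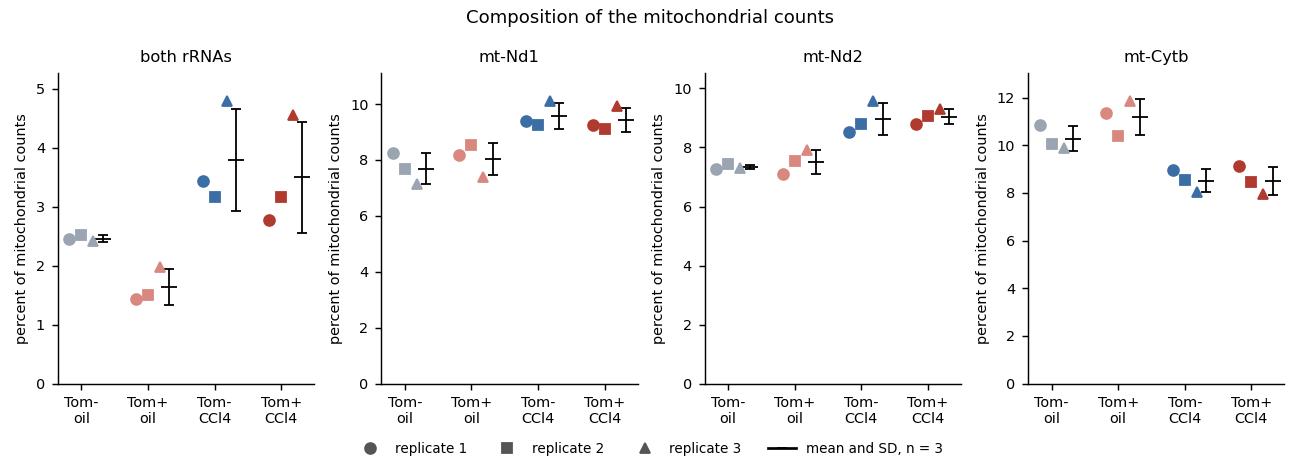
Percent of the mitochondrial counts of a library (y axes, each starting at 0) held by both rRNAs together, mt-Nd1, mt-Nd2 and mt-Cytb in the 4 groups (x axes). Symbols are libraries, with circles, squares and triangles for replicates 1, 2 and 3, and black bars are the mean with its SD (n = 3). The rRNAs, mt-Nd1 and mt-Nd2 sit higher and mt-Cytb sits lower in the CCl4 libraries than in the oil libraries, without overlap.

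The nuclear genes whose products work with the mitochondrial ones were read from the same fit. The partner subunits of complexes I, III and IV and of ATP synthase were 70 nuclear genes, all tested, and edgeR and DESeq2 called none of them in any of the 6 contrasts. At an unadjusted p under 0.05, 6 passed for Tom+ against Tom- in CCl4, against 22.8% of all genes. In the same way it was 1 in oil (7.00%) and 1 for the interaction (18.6%), and for CCl4 against oil it was 21 in Tom- (31.5%), 4 in Tom+ (24.4%) and 15 averaged (35.0%). The share of these genes was below that of all genes in all 6 contrasts, by the least for CCl4 against oil in Tom-. The medians of the 4 lists lay between 0.026 and 0.098 for Tom+ against Tom- in CCl4, with 50 genes above and 20 below 0, where the 13 mitochondrial mRNAs had a median of -0.76. For CCl4 against oil in Tom- cells they lay between -0.21 and -0.11, with 7 genes above and 63 below 0, where the mitochondrial mRNAs had 0.74. In both contrasts, as in oil, where the list medians lay between -0.11 and -0.080 and the mitochondrial mRNAs had 0.57, the signs were opposite. For CCl4 against oil in Tom+ cells both were negative, with list medians between -0.046 and -0.0053 and -0.53 for the mitochondrial mRNAs. The difference between the lists was not tested.

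Among 57 nuclear regulators, 22 for transcription and upkeep of mitochondrial DNA, 27 for processing and decay of its RNA and 8 for mitochondrial biogenesis, none passed for Tom+ against Tom- in CCl4 (11 at an unadjusted p under 0.05, where 22.8% of all genes passed, and none with DESeq2), in oil (1 against 7.00% of all genes, and none) or for the interaction (11 against 18.6%, and none). For CCl4 against oil in Tom-, none passed with edgeR, 11 had an unadjusted p under 0.05 against 31.5% of all genes, and DESeq2 called 1, Ppargc1b. In Tom+ cells 2 of the 57 fell with CCl4, against 2.34% of all genes, a share near the background. There 15 had an unadjusted p under 0.05, against 24.4% of all genes, and DESeq2 called 2. Mterf2, a member of the mitochondrial transcription terminator family, was at 2.17 ± 0.569 CPM in Tom+ oil and 0.777 ± 0.372 in Tom+ CCl4 (SD, n = 3), a log2 fold change of -1.47 (SE 0.41, edgeR adjusted p 0.0375). Ppargc1b, a coactivator that promotes mitochondrial biogenesis, was at 2.80 ± 0.629 and 1.17 ± 0.331 CPM, a log2 fold change of -1.24 (SE 0.29, edgeR adjusted p 0.0172). Averaged over the fractions the same 2 of 57 were called lower, against 2.26% of all genes, with log2 fold changes of -1.18 (SE 0.29, edgeR adjusted p 0.0118) and -1.05 (SE 0.21, edgeR adjusted p 0.00323). In this contrast 16 had an unadjusted p under 0.05, against 35.0% of all genes, and DESeq2 called 2. The ranges of Mterf2 and Ppargc1b over the alternatives are not given here.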

How the data were processed

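Per the labels and the study's methods, RNA from sorted hepatocytes was made into poly(A)-enriched, strand-specific libraries, and the authors processed reads with fastp 0.23.2 and HISAT2 2.1.0 on mm10 (GRCm38), calculated TPM with TPMcalculator, values that were not used here, and tested genes with DESeq2 1.42.1. The tool that made the count table, its strand setting and the annotation release are not given in the sources used here. The deposited values are estimated counts per feature: 30.4% to 32.9% of the values above 0 in a library were not whole, so they were rounded, where whole counts had been assumed. Of the features, 54723 (99.8%) had a symbol.

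One edgeR 4.0.16 quasi-likelihood fit (R 4.3.3, limma 3.58.1, TMM, filterByExpr, robust) covered all 12 libraries with 1 coefficient per group and 17121 genes. Calls needed a Benjamini-Hochberg adjusted p under 0.05 over all genes and a log2 fold change beyond 0.75. Shares were compared by 2-sided exact permutation tests (scipy 1.17.1). TPM was computed from the deposited lengths. Nuclear copies were found with blastn 2.17.0 of GENCODE M21 transcripts (at least 95% identity over 100 bases), figures drawn with matplotlib 3.10.9. The procedure was tested on simulated data for Tom+ against Tom- in CCl4, with 200 genes changed. It called 76% of the 2-fold and 94% of the 3-fold changes, with 3 false calls. Alternatives were other scalings (DESeq2 size factors, total counts, nuclear counts), no filter, DESeq2 1.42.0, a replicate block, each library left out, the 2 oil libraries left out and, chosen after seeing the data, nuclear copies added. Tom- and Tom+ libraries with the same number departed from their group means in a like way (correlations 0.187 to 0.401 over 6 pairs), so the numbers pair them, which is seen only in the data, since the labels do not tie numbers to animals.

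Named were all mRNAs and rRNAs, the 5 tRNA features highest in CPM, all called members, otherwise the highest and lowest mRNA or rRNA per contrast, and called members of nuclear lists. Members and lists were chosen with earlier results of these data known.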

Additional observations from a re-analysis of the deposited data

Results flagged for a closer look

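The mitochondrial share of the library stood out because Tom+ minus Tom- had opposite signs under the 2 treatments: the difference in CCl4 mice minus that in oil mice was -2.78 percentage points, with all 3 CCl4 pairs below 0 and all 3 oil pairs above 0 (exact permutation p 0.1, the smallest the design allows). The log2 interaction passed the test for mt-Atp8 (-1.39, edgeR adjusted p 0.0165), mt-Atp6 (-1.31, 0.0304), mt-Co3 (-1.22, 0.0222), mt-Nd3 (-1.39, 0.0109) and mt-Nd4l (-1.41, 0.0445). With the replicate block it did not pass for mt-Nd4l (edgeR adjusted p 0.0740), which lost its call in 11 of 20 alternatives. The oil side of each rests on groups in which 1 library each goes against its label by the reporter. Oil pairs 1 and 2 therefore had like reporter levels in both libraries, and only oil pair 3 set a low against a high one.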

How the results depend on the processing

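The direction of the differences in the total mitochondrial share and of the mRNA medians held under all alternatives run. Shares of single classes were not recomputed. With 1 library left out, called members numbered 2 to 12 for Tom+ against Tom- in CCl4, 0 in oil, 7 to 25 for CCl4 against oil in Tom-, 0 to 2 in Tom+ and 1 to 16 for the interaction, and the median of the mRNAs in oil was 0.37 to 0.90. Calls were 14 in CCl4 with DESeq2 and 22 for the interaction. In Tom+ they were 2 with DESeq2, 3 by adjusted p alone and 0 without the filter. Without the 2 oil libraries in doubt they were 25 in Tom- and 14 for the interaction, and the oil median was 0.90. The value of mt-Rnr1 for Tom+ against Tom- in oil ran from -0.26 to 0.22 with 1 library left out and turned positive without Tom- oil replicate 1 (0.22), without Tom+ oil replicate 1 (0.076) and without the 2 oil libraries (0.22). The causes of these shifts were not tested. With the replicate block, the interaction called 12 members, mt-Tn was added in CCl4, and, for oil against CCl4, where the libraries share only a number (correlations 0.00898 to 0.226), mt-Co2 dropped out in Tom-. The block changed no other call of a member. Features with few counts, such as mt-Tf, mt-Tv and mt-Tr, are limited by depth.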
